A study of Mus musculus with 16 samples.

Results

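Neutrophil granule and calprotectin transcripts were followed in single CD45+ cells of MC38 tumors and spleens from *Aire*+/+ and *Aire*-/- mice. The 8 genes S100a8, S100a9, Ngp, Camp, Ltf, Lcn2, Retnlg and Mmp9 were chosen by name, as products that neutrophils make at successive stages of maturation. They are 8 of 24495 symbols, and each came from 1 of the 25127 rows of the count tables.

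The tumors grew from MC38, a mouse colon cancer cell line, implanted under the skin of *Aire*+/+ and *Aire*-/- C57BL/6 animals that were 8 weeks of age, and each genotype received anti-PD1 or an isotype control antibody. Tumors and spleens were taken on day 19, pooled over the mice of a condition and sorted for CD45 or for CD8, so that every combination of condition, tissue and sort is a single library, 16 in all. The 8 CD45+ libraries carry the comparisons, so the 4 conditions each have 1 tumor and 1 spleen library. Values are given throughout in the order *Aire*+/+ with isotype, *Aire*+/+ with anti-PD1, *Aire*-/- with isotype, then *Aire*-/- with anti-PD1. Tumors were dissociated with enzymes and spleens by mechanical means, so tissue and preparation cannot be told apart.

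*Aire*, the gene targeted in the knockout, is a thymic regulator of self-antigen expression and was hardly detected. It counted 0, 2, 1 and 0 UMIs (unique molecules) in the CD45+ tumor libraries and 2, 5, 4 and 0 in the CD45+ spleen libraries. In the CD8+ libraries it counted 6, 3, 1 and 0 UMIs in tumor and 0, 0, 0 and 0 in spleen. These 24 UMIs cannot check the genotype labels. Of 17769 CD45+ barcodes, 17668 passed a minimum of 200 genes and a maximum of 20% mitochondrial UMIs. The tumor libraries held 2930, 2208, 1856 and 2075 cells with 38930018, 28760725, 24639380 and 23282801 UMIs, and the spleen libraries 2095, 2088, 2023 and 2393 cells with 12131829, 10927395, 11179230 and 12618100 UMIs. Median UMIs per cell ran from 9889 to 12251.5 in tumor and from 4413.5 to 4733 in spleen, so every tumor library was deeper per cell than every spleen library. Barcodes shared by libraries numbered 195, from 3 to 16 for each of 28 pairs of libraries, and 5 of the neutrophil-like cells described next carry such a barcode.

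Neutrophils build their granules in sequence while they mature in the bone marrow. Azurophil granule proteins are made by promyelocytes, specific granule proteins such as lactoferrin and cathelicidin by myelocytes and metamyelocytes, and gelatinase granule proteins later still, so that a mature cell keeps the early proteins but has largely stopped transcribing their genes. S100A8 and S100A9, which pair to form the metal-binding protein calprotectin, fill the cytosol across much of this course. The spleen holds mature neutrophils and can also house granulocyte precursors, and neutrophils enter tumors from the blood.

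A neutrophil-like class was defined from clusters built without the 8 genes. It was 1 of 14 clusters, carried 13 of 14 neutrophil markers and was led, apart from the 8 genes, by G0s2, Wfdc21 and Hdc. It held 135 cells, 97 of 9069 in tumor (1.07%, exact 95% interval 0.868 to 1.30) and 38 of 8599 in spleen (0.442%, 0.313 to 0.606). Cells of the class numbered 30, 34, 20 and 13 in the tumor libraries, or 1.02%, 1.54%, 1.08% and 0.627% of cells. In spleen they numbered 23, 7, 1 and 7, or 1.10%, 0.335%, 0.0494% and 0.293%. The *Aire*+/+ isotype spleen thus had a share like those of the tumors, and the *Aire*-/- isotype spleen had a single cell (interval 0.00125% to 0.275%). Intervals cover counting error only, and UMIs of a cell are not independent of each other.

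Both calprotectin genes were detected in every library, with higher levels in spleen. S100a8 counted 138, 133, 103 and 77.0 CPM (the usual scaling of UMIs to a common library total) in the tumor libraries (mean 113 ± 28.5, SD, n = 4). In the spleen libraries it counted 689, 359, 178 and 811 CPM (mean 509 ± 292, SD, n = 4), so the 4 spleens lay above the 4 tumors without overlap. In tumor, S100a9 counted 186, 166, 127 and 99.3 CPM (mean 145 ± 39.0, SD, n = 4). The spleens had 769, 362, 180 and 912 CPM of it (mean 556 ± 342, SD, n = 4), and the lowest spleen, *Aire*-/- isotype, lay among the tumor libraries. Over the summed libraries the spleen level was 4.46 times the tumor level for S100a8 (95% counting interval 4.37 to 4.55) and 3.78 times for S100a9 (3.71 to 3.85). In sums over whole libraries, fewer cells of a type and less RNA per cell cannot be told apart.

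The specific granule genes split the tissues far more sharply. Ngp, a granule protein of the cathelicidin and cystatin superfamily, gave 1, 1, 0 and 0 UMIs in the tumor libraries. In spleen it gave 1744, 1057, 443 and 4552 UMIs, or 144, 96.7, 39.6 and 361 CPM. Camp, the precursor of the antimicrobial peptide cathelicidin, had 0 UMIs in each of the 4 tumor libraries. The spleens had 1147, 875, 673 and 3027 UMIs of it, or 94.5, 80.1, 60.2 and 240 CPM. Relative to UMIs sequenced, Ngp was 9618 times higher in spleen (95% counting interval 2662 to 79432, from 2 tumor UMIs). Camp was 4706 times higher in spleen than a floor of 3 counts over the 4 tumor libraries together. The lower limit of its 95% counting interval was 3826 times. Ltf, which encodes the iron-binding protein lactoferrin, was low in tumor but present in each library, with 1.72, 0.939, 1.83 and 3.35 CPM. Its spleen levels were 36.3, 18.4, 8.77 and 77.8 CPM, all above the tumors, and the summed ratio was 19.6 (17.0 to 22.6). Lcn2, a lipocalin that binds bacterial siderophores and is also made outside neutrophils, counted 9.79, 5.81, 5.03 and 3.87 CPM in tumor. In spleen it counted 77.6, 36.5, 17.1 and 109 CPM, again without overlap between the tissues. The *Aire*-/- anti-PD1 spleen was the highest library, and the *Aire*-/- isotype spleen the lowest spleen, for each of these 4 genes.

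Genes of later neutrophils differed less between the tissues. Retnlg, which encodes the secreted protein resistin-like gamma, counted 9.53, 12.1, 1.99 and 5.54 CPM in tumor and 42.4, 10.2, 1.61 and 7.29 CPM in spleen. The tissues overlapped, and the *Aire*-/- isotype library was the lowest of its tissue in both. Mmp9, the gelatinase of the granules of the same name, counted 2.54, 2.71, 1.62 and 2.62 CPM in tumor and 10.9, 3.84, 3.76 and 4.83 CPM in spleen. Here the 4 spleens were above the 4 tumors, and the *Aire*+/+ isotype spleen was by far the highest.

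**Figure D1:**
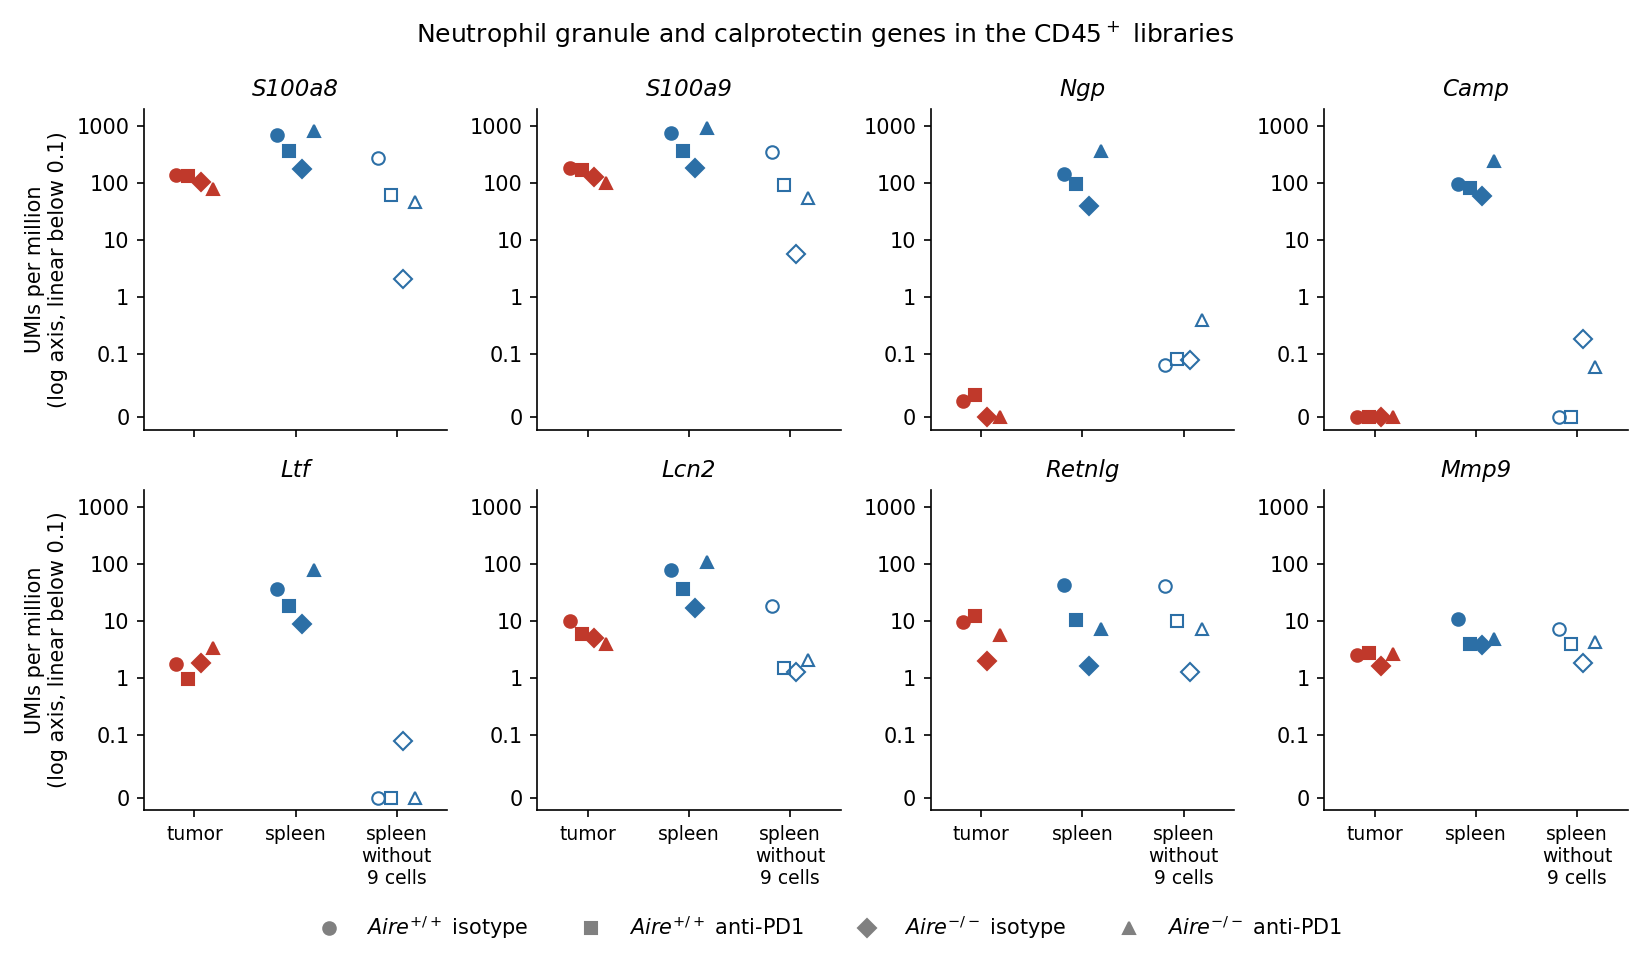
Level of each of the 8 genes (CPM, log axis) in the CD45+ libraries, with 1 marker per condition for tumor, for spleen, and for spleen without its 9 cells high in Ngp, Camp and Ltf. Ngp and Camp had at most 1 UMI in any tumor library, while splenic S100a8, S100a9 and Lcn2 moved toward or below the tumor levels once the 9 cells were left out.

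Tumor and spleen were compared across all genes with edgeR quasi-likelihood F tests on the summed UMIs of each library, with condition as a block, 3 residual degrees of freedom and Benjamini-Hochberg adjustment. At an adjusted p below 0.05, 7 of the 8 genes were called, all lower in tumor, where 72.3% of 12181 tested genes were called in either direction and 37.4% were called lower. S100a8 was lower in tumor in 4 of 4 pairs (log2 difference −1.74, SE 0.422, adjusted p = 0.00881). S100a9 gave −1.47 (SE 0.436, adjusted p = 0.0201, 4 of 4 pairs). Ltf fell furthest among the genes with more than a few UMIs in tumor, with −3.74 (SE 0.375, adjusted p = 0.000162, 4 of 4 pairs). Lcn2 gave −2.81 (SE 0.459, adjusted p = 0.00147, 4 of 4 pairs) and Mmp9 −0.97 (SE 0.278, adjusted p = 0.0174, 4 of 4 pairs). Ngp and Camp were called with fitted log2 differences of −12.46 and −14.01 (adjusted p = 1.01e-06 and 2.06e-05, each lower in 4 of 4 pairs), values that depend on the prior count of the fit and bound nothing. Retnlg did not pass (log2 difference −0.42, SE 0.427, adjusted p = 0.398, higher in tumor in 2 of 4 pairs), and its direction turned without the *Aire*+/+ isotype pair (0.24, adjusted p = 0.346, higher in 2 of 3 pairs). Without that pair S100a9 (−1.35, adjusted p = 0.0713, 3 pairs) and Mmp9 (−0.63, adjusted p = 0.0557, 3 pairs) missed the threshold in edgeR, and without the *Aire*-/- isotype pair Mmp9 missed it again (−0.96, adjusted p = 0.0624). With each cell thinned to 1000 UMIs the calls of S100a8 (−0.03, adjusted p = 0.958), S100a9 (0.16, adjusted p = 0.762) and Mmp9 (−0.49, adjusted p = 0.331) were lost. Lcn2 and Ltf were still called by edgeR after thinning but with smaller differences, Lcn2 at −0.996 (adjusted p = 0.0346, higher in tumor in 2 of 4 pairs) and Ltf at −2.35 (adjusted p = 0.000464, lower in 4 of 4 pairs), and with Ngp and Camp this left 4 genes called.

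Early granule transcripts were concentrated in a few single cells. In 9 of the 38 splenic neutrophil-like cells, Ngp, Camp and Ltf together held 10.2% to 17.8% of all UMIs (median 13.005%). In the other 29 these genes had 0 UMIs, so no splenic cell of the class lay between. The 9 cells came from every spleen library, with 3, 1, 1 and 4 cells. A median of 627 Ngp UMIs (207 to 2111), 594 Camp UMIs (250 to 1202), 164 Ltf UMIs (37 to 407) and 219 Lcn2 UMIs (62 to 689) was counted in them. Calprotectin transcripts were a further 30.6% to 42.5% of their UMIs (median 36.8%), whereas Retnlg and Mmp9 together made up 0% to 0.388% (median 0.0485%). Retnlg and Mmp9 were each still detected in 6 of the 9 cells, and the Mmp9 level there, 670 CPM, was above the 355 CPM of the tumor neutrophil-like cells. They were also the deepest splenic cells of the class, with 4861 to 25449 UMIs against 1726 to 3968 in the other 29.

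The remaining splenic cells had more of the later transcripts. Mmp9 was found in all 29 of them and Retnlg in 25, and the pair held a median of 0.881% of UMIs (0.0579% to 3.59%). Calprotectin transcripts held a median of 15.6% (1.37% to 25.6%), and Lcn2 was seen in 16 of the 29 cells. With a cell counted as high when a group of genes holds at least 0.5% of its UMIs, 9 of 38 splenic cells were early-high (23.7%, exact 95% interval 11.4 to 40.2), 16 were mature-high (42.1%, 26.3 to 59.2) and 0 were both. With Lcn2 counted among the early genes, 13 were early-high and 3 of these also mature-high, and the groups nearly met, at 0.710% for the lowest early-high cell and 0.488% for the highest other. At a limit of 0.2%, 3 of the 9 early-high cells were also mature-high. Over the 135 neutrophil-like cells the early and mature scores had a Pearson r of −0.0926, a description across cells that share libraries and differ in depth.

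Tumor neutrophil-like cells, like the 29 splenic cells, were not early-high, and their calprotectin and mature shares overlapped those of the 29 with lower medians. None of the 97 was early-high, which allows a share of up to 3.09%, and the largest early share was 0.208%. Ngp was seen in 2 of them, Camp in 0 and Ltf in 14. S100a8 and S100a9 were each found in 92 of the 97 cells, yet the pair held a median of only 3.25% of UMIs (0% to 23.5%). Retnlg was found in 44 cells, Mmp9 in 66 and Lcn2 in 45, and 11 cells were mature-high (11.3%, interval 5.80 to 19.4). At a limit of 0.2%, 25 tumor cells were mature-high and 1 was early-high, and at 1% the counts were 4 and 0. Their median depth, 4233 UMIs (3451 to 19330), lay above the 2299 of the 29 splenic cells (1726 to 3968).

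**Figure D2:**
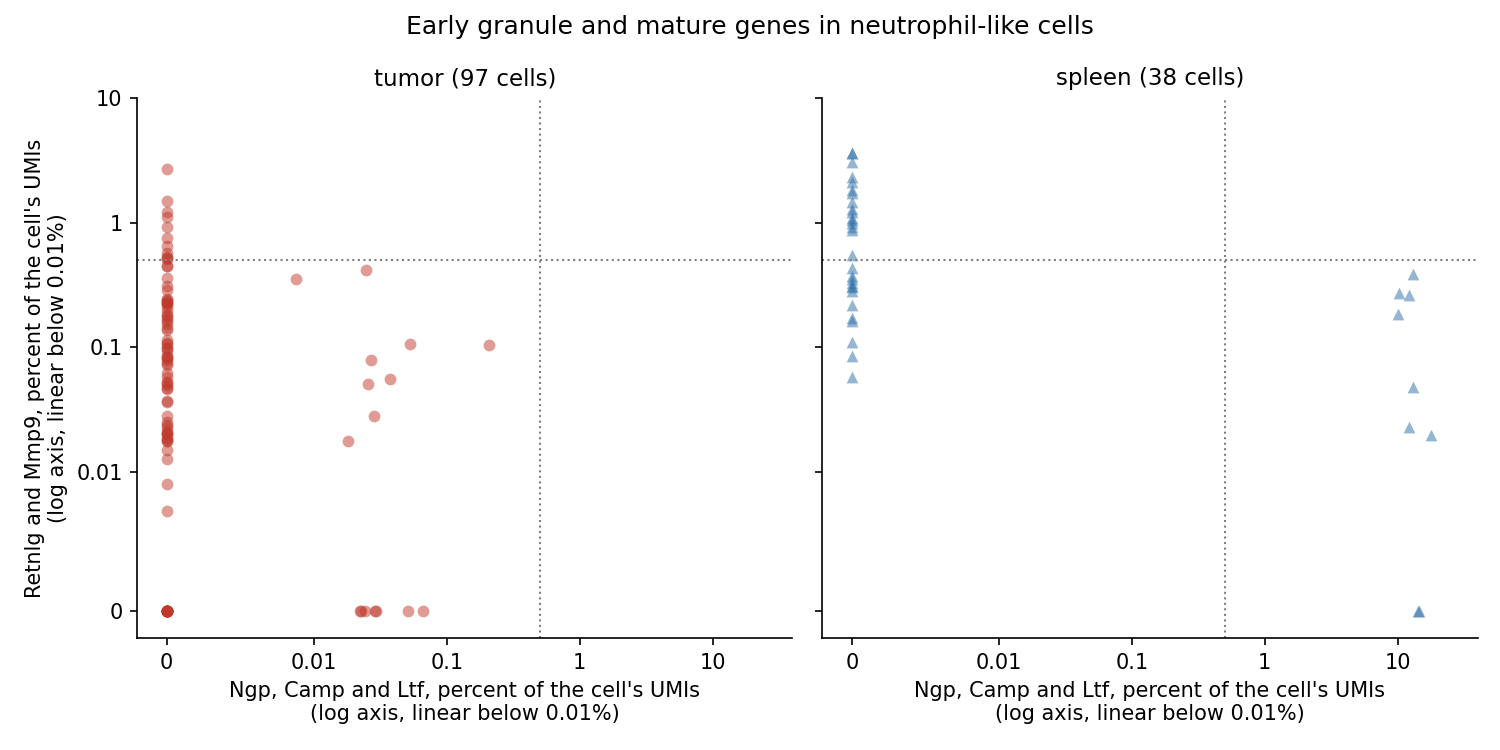
Share of each neutrophil-like cell's UMIs held by Ngp, Camp and Ltf (horizontal) and by Retnlg and Mmp9 (vertical), in percent on log axes that are linear below 0.01%, with 1 point per cell and dotted lines at 0.5%. The 9 splenic cells on the right sit at 10.2% to 17.8%, and all 97 tumor cells lie left of the line, at or below 0.208%.

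The 9 early-high cells carried most of the splenic signal. Of the 15239 UMIs of Ngp, Camp and Ltf in all 8599 splenic cells, 15227 were in these 9, and no cell outside the neutrophil-like class was early-high. The same cells held 81.0% of splenic S100a8 UMIs, 78.0% of S100a9 and 90.6% of Lcn2, but 4.49% of Retnlg and 27.4% of Mmp9. In the *Aire*-/- isotype spleen 1 cell held 98.8% of the S100a8 UMIs, and in the *Aire*+/+ anti-PD1 spleen 1 cell held 83.1%. Without the 9 cells, splenic S100a8 was 280, 60.9, 2.06 and 46.4 CPM and S100a9 was 345, 90.7, 5.73 and 53.8 CPM, so that only the *Aire*+/+ isotype spleen stood above its tumor. Lcn2 was then 18.0, 1.47, 1.25 and 2.07 CPM. Splenic Ltf was reduced to 1 UMI, so its direction without these cells was set by their choice and tests nothing. In an edgeR fit without them, made after seeing the data, S100a8 (1.38, adjusted p = 0.201), S100a9 (1.32, adjusted p = 0.159) and Lcn2 (0.98, adjusted p = 0.1198) were each higher in tumor in 3 of 4 pairs and not called. The cells removed were chosen by granule genes and came from spleen alone, so these values are a description. Mmp9 (−0.52, adjusted p = 0.0988) and Retnlg (−0.34, adjusted p = 0.509) were not called by edgeR either, and Ngp and Camp had too few UMIs to be tested.

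Other granulocyte genes were compared over the same 3 groups, as CPM over the early-high splenic, other splenic and tumor neutrophil-like cells. The groups differ in depth and cell number, and the share of all genes highest in each was not computed, so the counts are a description. Of 15 other specific granule and myelocyte genes, 11 were highest in the early-high cells, 3 in the other splenic cells and 1 in tumor. Chil3, a chitinase-like protein, counted 8568, 0 and 155 CPM. Cd177, a neutrophil surface protein, counted 1375, 43.3 and 17.6, and Cebpe, the transcription factor of specific granule genes, 502, 14.4 and 9.80. Early-high cells thus carried Cd177 in 9 of 9 and Cebpe in 8 of 9. The 3 highest in other splenic cells were close to the early-high level, Mmp8 at 414 and 577 CPM, Hp at 2027 and 2279 and Padi4 at 256 and 274. Olfm4 was highest in tumor, at 17.6, 0 and 31.4 CPM. The azurophil granule genes Mpo, Elane and Ctsg had 0 UMIs in all 3 groups. Prtn3, another gene of these granules, had 3 UMIs in 1 early-high cell, and the promyelocyte-stage genes Fcnb and Ms4a3 were seen in 6 and 3 of the 9 cells. Cell cycle genes summed to 388, 14.4 and 21.6 CPM. Of 19 other mature and recruited neutrophil genes, 0 were highest in the early-high cells, 6 in the other splenic cells and 13 in tumor. Csf3r, the receptor for granulocyte colony-stimulating factor, counted 61.7, 2943 and 725 CPM, and the chemokine receptor Cxcr2 88.2, 1702 and 702. Inflammatory genes were among those highest in tumor. Il1b, which encodes interleukin-1β, counted 0, 5049 and 23047 CPM, and the chemokine gene Cxcl2 8.82, 28.9 and 35437. Ccl3 counted 0, 0 and 5327 CPM, and Cd274, which encodes PD-L1, 0, 57.7 and 894. Macrophage C1q transcripts, at 0, 0 and 527 CPM, were also present in the tumor cells of the class, and their part in these levels was not tested.

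Genes most like the members were ranked by correlation, as a description. Over 52 class-by-library sums, of which 4 were neutrophil-like, the 10 genes closest to the mean of S100a8 and S100a9 were Cxcr2 (r = 0.959), Stfa2l1, Lrg1, Amer2, Dhrs9, Chil1, Mrgpra2b, Nlrp12, Gm10872 and Cxcr1 (r = 0.937). Without the 4 neutrophil-like points Cxcr2 had r = 0.713 and Cxcr1 r = 0.0178. Over the 135 cells, the score of Ngp, Camp and Ltf was most like Chil3 (r = 0.899), Lta4h (0.895), Cd177 (0.863), Cebpe (0.729), B230208H11Rik, Ckap4, Syne1, Cybb, Ly6g and Lyz1 (0.615). Retnlg and Mmp9 were most like S100a11 (r = 0.628), Hp (0.625), Pglyrp1 (0.612), Prr13, Alox5ap, Taldo1, Tmsb4x, Nfam1, Rps9 and Zyx (0.556). Lcn2 lay nearer the early score (0.612) than the mature score (0.325), and S100a8 nearer the mature score (0.504) than the early score (0.341). By level, however, S100a8 was highest in the early-high cells, at 174962 CPM against 63461 CPM in the other splenic and 20481 CPM in the tumor cells.

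Outside the neutrophil-like class the direction turned, and S100a8, S100a9, Ltf and Lcn2 were higher in tumor. The mix of cells differed too, with macrophage markers higher in tumor in 7 of 7 and B cell markers lower in 6 of 6. Monocytes numbered 2452 in tumor and 545 in spleen. Summed over monocytes alone, S100a8, S100a9 and Lcn2 were not higher in tumor, and S100a8 by library went both ways, as given below. The part of the cell mix in these levels was not tested. S100a8 counted 42.7, 16.2, 34.4 and 6.51 CPM in the other tumor cells and 18.7, 0.459, 2.06 and 0.637 CPM in the other splenic cells. For S100a9 the levels were 35.2, 14.0, 35.5 and 5.17 against 4.56, 0, 5.73 and 0.876 CPM. Each pair was higher in tumor, although the lowest tumor library lay below the highest spleen for both genes. Ltf counted 1.63, 0.734, 1.26 and 3.23 CPM in tumor and a single UMI over the 4 spleens. Lcn2 counted 8.08, 3.32, 3.87 and 2.11 CPM in tumor against 7.80, 0.459, 1.25 and 0.398 CPM in spleen. By edgeR on these cells, 4 of the 6 testable genes were called, all higher in tumor. Of 12174 genes 72.4% were called in either direction, a share that 4 of 6 does not exceed. Among them 4263 were higher and 4552 (37.4%) lower in tumor. S100a8 rose by 3.07 on the log2 scale (SE 0.559, adjusted p = 0.00240, 4 of 4 pairs) and S100a9 by 3.38 (SE 0.447, adjusted p = 0.000549, 4 of 4 pairs). Lcn2 rose by 1.56 (SE 0.445, adjusted p = 0.0167, 4 of 4 pairs). Ltf was called as well (fitted log2 difference 6.15, adjusted p = 0.000209, 4 of 4 pairs), but with 1 splenic UMI the fitted size depends on the prior count and bounds nothing. By UMIs its spleen level was 0.0130 times the tumor level (counting interval 0.000327 to 0.0732). Retnlg (1.07, adjusted p = 0.213, higher in 3 of 4 pairs) and Mmp9 (−0.91, adjusted p = 0.0925, higher in 1 of 4 pairs) did not pass, and Ngp and Camp were too sparse to test. Calls depended on how the class was drawn and on the block. Without the block S100a8 (2.43, adjusted p = 0.0543) and Lcn2 (1.06, adjusted p = 0.277) were not called by edgeR. Without the *Aire*-/- isotype pair Lcn2 was not called by edgeR either (1.52, adjusted p = 0.0699). With the class set by marker genes, where 3 of the 8 genes could be tested, S100a9 was not called by edgeR (2.17, adjusted p = 0.108). With the class set by calprotectin UMIs it was at 0.33 (edgeR adjusted p = 0.757). That gate removes cells by the UMIs then tested, so this S100a9 value tests nothing. Mmp9 was called lower in tumor when the class came from clusters built with the 8 genes (−1.34, adjusted p = 0.0446), from marker genes (−1.60, adjusted p = 0.00679) or from calprotectin UMIs (−1.49, adjusted p = 0.00833), and without the *Aire*+/+ isotype pair (−1.43, adjusted p = 0.00615).

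Calprotectin UMIs in B and T cells were counted as a reference for the other classes, and whether they are free RNA, doublets or transcripts of these cells was not tested. In spleen, 10 of 5874 B-class cells had an S100a8 UMI (0.170%, 0.343 CPM) and 14 had an S100a9 UMI (0.238%, 0.514 CPM), at a median depth of 4280.5 UMIs. Splenic T-class cells gave 4 and 3 UMIs over 1670 cells (0.240% and 0.180%, median depth 5475). Beyond the neutrophil-like class the whole spleen had 8 UMIs of Ngp, 3 of Camp and 1 of Ltf. Splenic lymphocytes thus held below 1 CPM of either calprotectin gene at full depth. Tumor lymphocytes had more, but in few cells. They were also other cells, as 1433 of the 1515 tumor T-class cells were in a cluster led by Gzmf and Cd8a (class median depth 8209) and 1651 of the 1670 splenic ones in the cluster led by Lef1 and Tcf7, so tissue and T cell type cannot be told apart. S100a8 was found in 4 of 1515 T-class cells (0.264%, 27.3 CPM), with 333 of the 397 UMIs in 1 cell and 4.40 CPM without it. In the small tumor B class 8 of 159 cells had S100a8 (5.03%, 67.2 CPM, or 39.6 CPM without the largest cell). When lymphocytes were instead chosen by their receptor genes, tumor levels were 15.1 CPM of S100a8 in B and 18.5 CPM in T cells. Of these UMIs 96 of 101 and 333 of 428 were in 1 cell each, and without it the levels were 0.749 and 4.12 CPM.

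Calprotectin outside the class was concentrated in a few cells with many UMIs. Cells outside the class with at least 10 calprotectin UMIs were counted, a cut on the same quantity. In tumor, 92.4% of the 5868 calprotectin UMIs outside the class lay in 49 such cells of 8972. Of these cells 28 were in the monocyte class, 14 in the macrophage class, 4 in B, 2 in T and 1 in the dendritic class. In spleen, 298 such UMIs, or 76.0%, lay in 8 monocyte-class cells. How these cells came to hold them was not tested. Monocytes had S100a8 in 182 of 2452 tumor cells (7.42%, interval 6.42 to 8.53, 43.2 CPM) and in 35 of 545 splenic cells (6.42%, 4.51 to 8.82, 53.4 CPM), at median depths of 11573 and 8197 UMIs. Both shares were above those of T-class cells in the same tissue (tumor median depth 8209), while the interval of the tumor B class (2.20% to 9.67%, median depth 21452) took in the monocyte share. S100a9 was seen in 25 of the 2452 tumor and 5 of the 545 splenic monocytes, and in 7.69% and 8.57% of those with S100a8. Nearly all monocytes of a tissue fell in 1 cluster, 2432 of the tumor cells in the cluster led by Thbs1 and Cxcl10 and 529 of the splenic cells in the cluster led by Lyz2 and Ace, so tissue and cluster cannot be told apart. Per UMI of S100a9 there were 1.91 of S100a8 in tumor monocytes (1.73 to 2.10) and 2.19 in splenic monocytes (1.74 to 2.76). Neutrophil-like cells had 0.709 (0.691 to 0.727) in tumor and 0.909 (0.893 to 0.925) in spleen. The monocyte ratios rest on few cells and their intervals do not allow for that, since the 28 tumor cells above held 1620 of the UMIs of the pair and 15 of them had no S100a9, and of the 8 splenic cells 6 had none. Tumor macrophages, at 0.855 (0.790 to 0.924), lay nearer the neutrophil ratios and had S100a8 in 88 of 3041 cells (2.89%, 27.1 CPM). Their ratio and interval rest on few cells as well. The 14 macrophage-class cells above held 2442 UMIs of the pair, where the class had 1183 of S100a8 and 1384 of S100a9. By library, S100a8 in tumor monocytes was 91.1, 20.03, 32.8 and 12.4 CPM and in splenic monocytes 117, 4.61, 19.4 and 1.69 CPM, highest in the *Aire*+/+ isotype library of each tissue.

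With libraries summed, neutrophil-like cells had the highest level of each of the 8 genes among the cell classes of either tissue, apart from Camp, which had 0 UMIs in tumor. For tumor Ltf this rests on 27 UMIs in 14 cells. By library, Ltf reached 29.2 CPM in a cluster without a cell type name, above the 21.4 CPM of the lowest neutrophil-like library. S100a8 was 20481 CPM in tumor and 132671 CPM in splenic neutrophil-like cells. Monocytes came next in spleen. In tumor the B, monocyte, T and macrophage classes are not ranked, since single cells set their order (67.2, 43.2, 27.3 and 27.1 CPM, or 39.6, 36.1, 4.40 and 20.6 CPM without the largest cell of each). Dendritic cells had 2.95 CPM and NK cells 0.507 CPM in tumor. For Lcn2 the neutrophil-like level was 412 CPM in tumor and 15239 CPM in spleen. Monocytes followed, with 15.9 and 25.1 CPM, and held 60.5% of the tumor UMIs of Lcn2. The share of UMIs inside the neutrophil-like class was 77.0% in tumor and 98.9% in spleen for S100a8, and 84.2% and 99.5% for S100a9. For Ltf it was 12.4% in tumor against 99.9% in spleen.

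**Figure D3:**
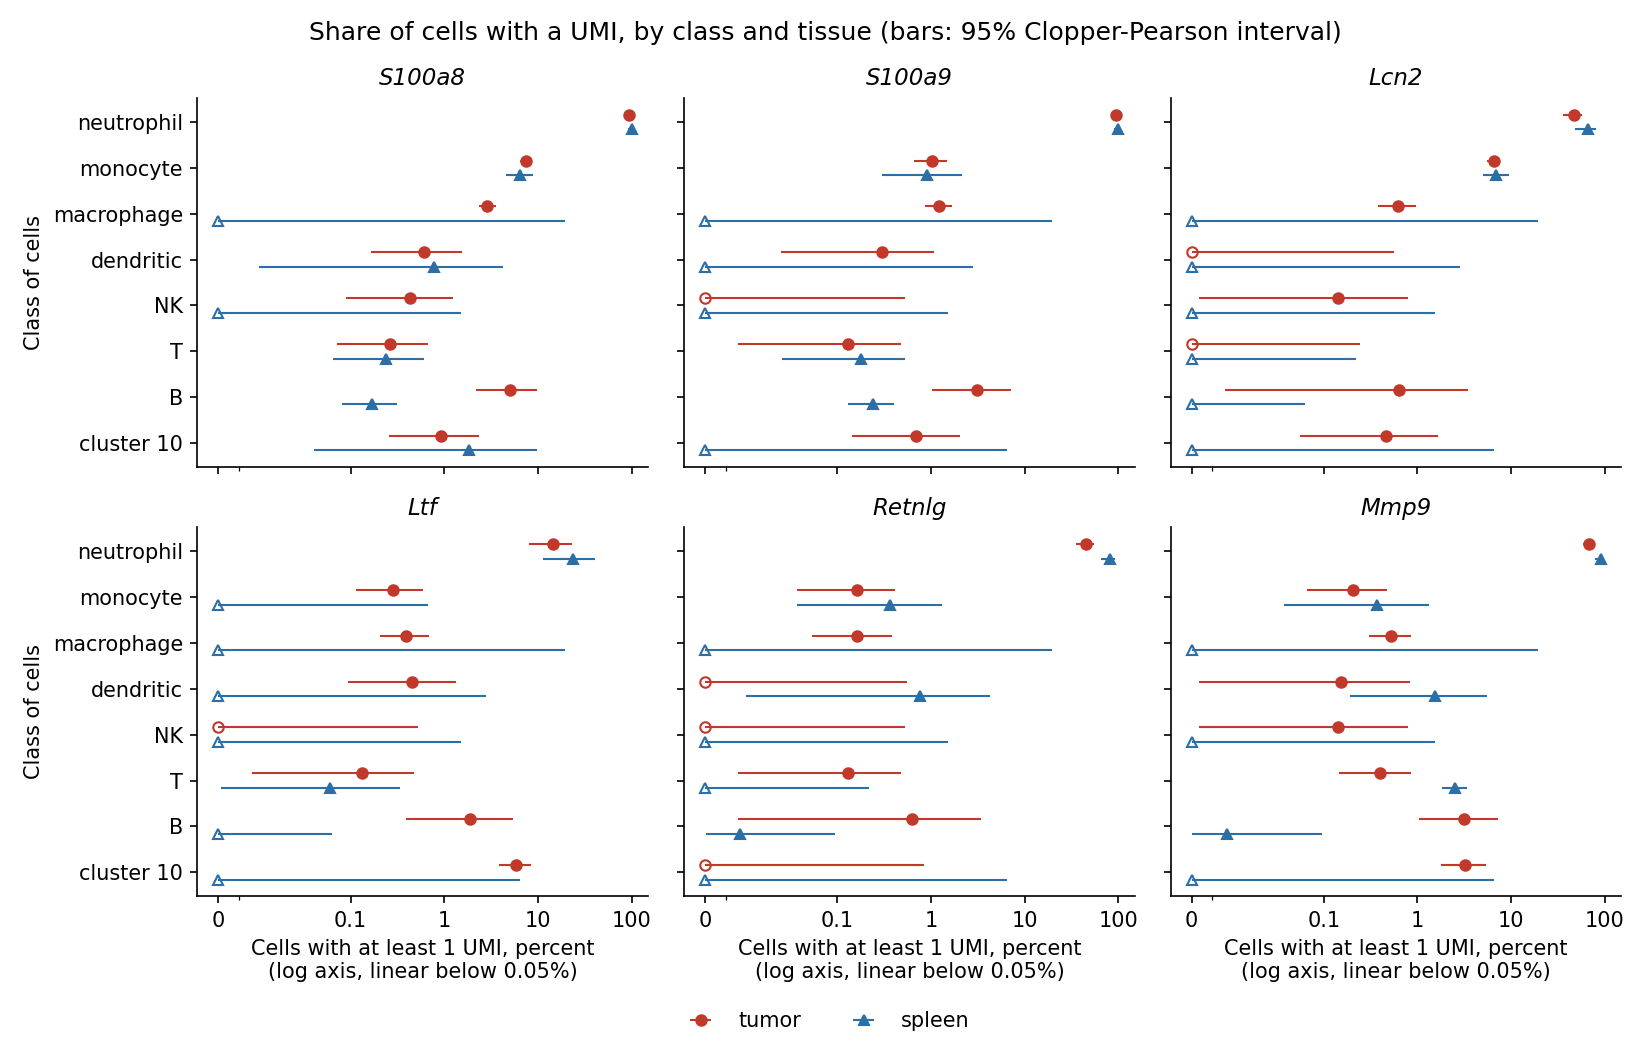
Percent of cells with at least 1 UMI of S100a8, S100a9, Lcn2, Ltf, Retnlg or Mmp9, by cell class and tissue, over the 8 CD45+ libraries. Axes are log and linear near 0, and bars are exact 95% intervals. Among neutrophil-like cells, S100a8 was found in 100% in spleen and 94.8% in tumor, and Ltf in 23.7% and 14.4%.

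Tumor Ltf had a different main source. A cluster without a cell type name, led by Tnfrsf4, Icos, Areg, Ctla4 and Il2ra and with Foxp3 among its leading genes, held 104 of the 217 tumor UMIs. Ltf was found in 25 of its 430 tumor cells (5.81%, interval 3.80 to 8.46) and in 0 of its 55 splenic cells. The 25 cells came from all 4 tumor libraries, with 13, 4, 6 and 2 cells, and Foxp3, the defining factor of regulatory T cells, was detected in 96% of them against 86.9% of the others. Splenic Mmp9 likewise had a source beyond neutrophils. The T class held 28.9% of it, as 80 UMIs in 42 cells of the cluster led by Lef1 and Tcf7, with 6, 13, 7 and 16 cells per library. Those 42 cells carried Klrb1c in 57.1% and Cxcr6 in 78.6%, against 8.27% and 22.6% of the other cells of the cluster, and Ccr7 in 0% against 60.8%. Genes marking both groups were looked up after the cells had been found.

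The *Aire* and anti-PD1 contrasts rest on 1 library each, so they are given as ratios with counting intervals and no test. In tumor, summed S100a8 and S100a9 were lower in the *Aire*-/- library under both antibodies, at 0.711 times the *Aire*+/+ level with isotype (0.689 to 0.734) and 0.589 times with anti-PD1 (0.567 to 0.611). Anti-PD1 libraries had 0.922 times the isotype level in *Aire*+/+ tumors (0.897 to 0.948) and 0.763 times in *Aire*-/- tumors (0.733 to 0.795). Retnlg and Mmp9 together were instead higher with anti-PD1, at 1.22 times the isotype level in *Aire*+/+ tumors (1.07 to 1.40) and 2.26 times in *Aire*-/- tumors (1.75 to 2.94). In *Aire*+/+ tumors this was Retnlg, at 1.27 (1.09 to 1.47), with Mmp9 at 1.07 (0.782 to 1.45), and in *Aire*-/- tumors the genes were at 2.79 (1.99 to 3.95) and 1.61 (1.07 to 2.47). Without the largest cell of the anti-PD1 library, which held 65 of 190 UMIs in *Aire*-/- mice, the sums were at 1.01 (0.873 to 1.16) and 1.49 (1.12 to 1.97). Leaving out a cell on that side alone lowers the ratio. The isotype libraries kept their largest cells, with 134 of 470 UMIs in *Aire*+/+ and 20 of 89 in *Aire*-/- tumor. Neutrophil-like cells as a share of tumor cells had a ratio of 1.05 (0.566 to 1.92) for *Aire* loss with isotype and 0.407 (0.197 to 0.791) with anti-PD1. Retnlg and Mmp9 together were lower in *Aire*-/- tumors, at 0.299 times (0.236 to 0.376) with isotype and 0.552 times (0.463 to 0.657) with anti-PD1. With anti-PD1 this was Retnlg at 0.459 (0.372 to 0.564), while Mmp9 was at 0.966 (0.679 to 1.37). In spleen the directions of the calprotectin and early granule sums differed by antibody. The *Aire*-/- spleen had 0.245 times the calprotectin UMIs of *Aire*+/+ with isotype (0.237 to 0.254) and 2.39 times with anti-PD1 (2.33 to 2.45). For Ngp, Camp and Ltf the ratios were 0.396 (0.370 to 0.423) and 3.48 (3.31 to 3.65). Retnlg and Mmp9 together were at 0.101 (0.0760 to 0.131) with isotype and 0.866 (0.688 to 1.09) with anti-PD1. The calprotectin and early sums follow the 3, 1, 1 and 4 early-high cells of the spleens, and without these cells, left out after seeing the data, the calprotectin ratio for *Aire* loss was below 1 under both antibodies, at 0.01246 (0.00997 to 0.0154) with isotype and 0.661 (0.614 to 0.712) with anti-PD1. Ltf in *Aire*-/- anti-PD1 tumor was 3.57 times that of *Aire*+/+ anti-PD1 tumor (2.28 to 5.75), where 1 cell held 43 of 78 UMIs and the ratio without it was 1.60 (0.943 to 2.75), or 2.28 (1.27 to 4.21) without the largest cell of each library.

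Other genes of the same pathways were compared between whole tumor and spleen libraries. Over all 12181 tested genes 4254 were higher in tumor and 4557 lower (72.3% called), with a median log2 difference of −0.05, so many calls are the background for each list. Of 15 other specific granule and myelocyte genes 12 were tested, and 8 were higher in tumor, 2 lower and 2 not called by edgeR (median 0.79). Anxa1, which encodes annexin A1, rose by 1.65 and Chil3 by 0.98, whereas Wfdc21 (−3.47) and Chil1 (−1.50) were lower. Mature and recruited neutrophil genes had 13 higher, 1 lower and 2 not called of 16 tested (median 3.65), with Il1b at 8.17 and Trem1 at 6.15. The 6 testable S100 genes other than the members were all higher (median 1.95), S100a6 by 2.68 and S100a4 by 2.17. Among receptors, partners and inhibitors of the member proteins 9 of 12 were higher and 3 lower (median 1.34). Tlr4, a receptor for calprotectin, was higher by 0.97 and Itgam, a chain of the integrin Mac-1, by 2.79, while Ager, another calprotectin receptor, was lower (−1.29). Other matrix metalloproteinases were higher in 5 of 5, Mmp14 by 8.82 and Mmp12 by 7.82. Granulopoiesis transcription factors were higher in 7 of 8 (median 1.69), including Cebpb by 3.14, and Gfi1 was not called (−0.57). Neither testable gene of the azurophil granule and promyelocyte list, Prtn3 or Fcnb, was called by edgeR (0 also at an unadjusted p below 0.05). The 3 resistin-like genes were too sparse to test, and of the cathelicidin and stefin genes Stfa2l1 was not called beside Ngp and Camp. Many of these genes are also made by macrophages and monocytes. Neutrophil markers were higher in tumor in 9, lower in 1 and not called in 4 of 14. Macrophage markers were higher in tumor in 7 of 7 (C1qb most abundant, mean 1642 CPM against 5.57), monocyte markers were higher in 6 and lower in 3 of 9, and B cell markers were lower in 6 of 6. Their part in the list counts was not tested. Scaling by library totals in place of TMM moved the median of all genes to −0.28, with 3319 genes higher and 5828 lower against 4254 and 4557, and left the directions of the 8 genes as they were.

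Some of the members lie near each other in the genome. On GRCm38.p6, S100a8 (chr3:90669071-90670034, plus strand) and S100a9 (chr3:90692630-90695721, minus strand) lie 22596 bases apart. Camp (chr9:109847377-109849456, minus), Ngp (chr9:110419808-110423012, plus) and Ltf (chr9:111019292-111042766, plus) follow each other on chromosome 9, with gaps of 570352 and 596280 bases. Lcn2 (chr2:32384637-32387739, minus) and Mmp9 (chr2:164940326-164955850, plus) are 132552587 bases apart on chromosome 2, and Retnlg (chr16:48872608-48874498, plus) is alone on chromosome 16. RefSeq promoters of 300 bases, from 250 before to 50 after the start, were available for 7 of the 8 genes, all but Mmp9. The letters TTNNGNAA, a form bound by C/EBP factors, were searched on both strands and found in 6 of these 7 promoters, against 40.7% of 32851 promoters of this length. Ngp had 3 matches, Ltf and S100a9 had 2 each, S100a8, Lcn2 and Retnlg had 1 each, and Camp had 0. GAGGAA, a core bound by PU.1, was in 3 of 7 against 28.3% of promoters. A match describes letters and is not evidence of binding. The promoters of the 3 genes counted together in the 9 early-high cells are printed 5′ to 3′ on the gene's strand, with TTNNGNAA matches of either strand in capitals, for Ngp at chr9:110419558-110419857 (plus), Camp at chr9:109849407-109849706 (minus) and Ltf at chr9:111019042-111019341 (plus).
Ngp: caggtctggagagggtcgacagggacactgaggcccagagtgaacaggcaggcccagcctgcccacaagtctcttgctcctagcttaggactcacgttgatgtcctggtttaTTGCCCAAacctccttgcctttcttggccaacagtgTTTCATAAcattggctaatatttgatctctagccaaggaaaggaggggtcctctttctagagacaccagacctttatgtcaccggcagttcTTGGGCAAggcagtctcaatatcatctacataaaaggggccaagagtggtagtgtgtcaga
Camp: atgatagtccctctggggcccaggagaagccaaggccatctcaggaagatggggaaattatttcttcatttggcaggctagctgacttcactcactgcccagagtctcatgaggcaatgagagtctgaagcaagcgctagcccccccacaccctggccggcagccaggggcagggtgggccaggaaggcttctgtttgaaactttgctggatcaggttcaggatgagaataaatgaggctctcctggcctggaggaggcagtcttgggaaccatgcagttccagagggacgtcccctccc
Ltf: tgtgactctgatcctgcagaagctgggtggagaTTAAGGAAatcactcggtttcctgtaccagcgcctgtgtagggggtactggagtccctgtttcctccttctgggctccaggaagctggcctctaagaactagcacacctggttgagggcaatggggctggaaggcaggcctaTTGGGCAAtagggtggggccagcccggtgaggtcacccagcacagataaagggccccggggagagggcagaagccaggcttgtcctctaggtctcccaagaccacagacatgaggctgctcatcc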

How the data were processed

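The authors deposited raw UMI counts per gene and barcode, with no normalization, made with Cell Ranger for called cells. Rows were summed by symbol (24495). The 8 members and all gene lists were chosen with earlier results of these data known. Cells with at least 200 genes and at most 20% mitochondrial UMIs were clustered without the members and with no doublets removed (1000 variable genes, 15 components, 30 neighbours, Leiden resolution 0.4, seed 0), using Python 3.11.15, leidenalg 0.10.2, igraph 0.11.9, scikit-learn 1.9.0, scipy 1.17.1 and numpy 2.4.6. A cluster took the name of the marker list with the highest mean log2 fold, at least 1, with 3 markers in 10% of its cells. Tumor and spleen were compared with edgeR 4.0.16 in R 4.3.3 (TMM, filterByExpr, condition block, threshold 0.05). Shares have Clopper-Pearson, sums exact Poisson and ratios conditional exact 95% intervals, and a count of 0 has a floor of 3 counts. The named genes are the members, listed genes and, by likeness, the 10 genes with the highest Pearson r among those with a UMI in 10% of neutrophil-like cells or over classes of at least 20 cells. DESeq2 1.42.0, no low-count filter, no block, leaving out each pair of libraries, all barcodes, thinning to 1000 UMIs, library totals, resolution 0.8, clusters with the members, gates of 2 marker or 10 calprotectin UMIs and other limits for a high cell were tried.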

Additional observations from a re-analysis of the deposited data

Results flagged for a closer look

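Of 30 groups of 4 libraries, 5 had a library far from the other 3 by Dixon's criterion at the 95% level, where chance gives about 1 in 20. Mmp9 over whole libraries was low in the *Aire*-/- isotype tumor (1.62 CPM) and high in the *Aire*+/+ isotype spleen (10.9 CPM). Outside the neutrophil-like class, S100a8 (18.7 CPM) and Lcn2 (7.80 CPM) were high in the *Aire*+/+ isotype spleen, and Ngp (0.398 CPM) was high in the *Aire*-/- anti-PD1 spleen. The Ngp value rests on 5 UMIs against 1 in each other spleen.

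For 6 of the 8 genes, splenic levels lay in opposite directions with *Aire* loss under isotype and anti-PD1. The ratio of *Aire*-/- to *Aire*+/+ was 0.258 and 2.26 for S100a8, 0.234 and 2.52 for S100a9, and 0.220 and 2.98 for Lcn2. It was 0.276 and 3.73 for Ngp, 0.637 and 2.996 for Camp, and 0.242 and 4.23 for Ltf. Without the early-high cells, left out after seeing the data, S100a8 and S100a9 were lower under both antibodies, at 0.763 and 0.593 with anti-PD1, and Lcn2 with anti-PD1 was at 1.41 with an interval that includes 1 (0.729 to 2.82). Ngp, Camp and Ltf then each had at most 5 UMIs per spleen. Retnlg was lower under both antibodies (0.0380 and 0.718), and Mmp9 was 0.345 and 1.26, the latter with an interval that includes 1 (0.835 to 1.91). These differences were not tested, since each ratio has 1 library on either side.

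The ratio of anti-PD1 to isotype in spleen also differed in direction between *Aire*+/+ and *Aire*-/- mice for 7 genes. Mmp9, at 0.353 and 1.29, had an interval that includes 1 in *Aire*-/- mice (0.855 to 1.95). The ratio was 0.521 and 4.56 for S100a8, 0.471 and 5.08 for S100a9, 0.471 and 6.36 for Lcn2, and 0.240 and 4.53 for Retnlg. Without the early-high cells, left out after seeing the data, the spleens had 280, 60.9, 2.06 and 46.4 CPM of S100a8, in the order of conditions used above. S100a9 was then at 345, 90.7, 5.73 and 53.8 CPM. For both genes the directions stayed, and the ratios lay further from 1. The Retnlg direction in *Aire*-/- mice rests on 1 cell with 82 of the 92 UMIs of the anti-PD1 spleen. Without it the ratio is 0.492 (0.203 to 1.12), and without the largest cell of each library 0.885 (0.331 to 2.37). The granule genes gave 0.673 and 9.10 for Ngp, 0.847 and 3.98 for Camp, and 0.507 and 8.88 for Ltf. In tumor only Ltf showed such a pattern among the 8 genes, with 0.545 in *Aire*+/+ and 1.83 in *Aire*-/- mice. This direction rests on 1 cell, which held 43 of the 78 Ltf UMIs of the *Aire*-/- anti-PD1 tumor. Without it the ratio is 0.824 (0.514 to 1.31), and without the largest cell of each library 1.16 (0.696 to 1.93), so no direction is left. These differences were not tested either. With all cells the counting intervals exclude 1 apart from Mmp9 under anti-PD1, but they do not allow for UMIs that share a cell.

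The CD8+ libraries, which enter no comparison of the 8 genes, held 165 Ltf UMIs in tumor. They also held 45 Mmp9 UMIs in tumor and 4 in spleen.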

How the results depend on the processing

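Of 80 values for the 8 genes over whole libraries under other settings, 73 kept the direction and the side of the threshold, 5 lost the call and 2 reversed. Retnlg, not called in any of these fits, ran from −0.75 to 0.24 when pairs of libraries were left out, and turned without the *Aire*+/+ isotype pair. Outside the neutrophil-like class 34 of 43 did so, 5 lost and 4 gained the call. Among these, the S100a8 and S100a9 values under the calprotectin gate were set by the gate itself. Thinning to 1000 UMIs per cell left 4 genes called (S100a9 at 0.16), and leaving out the early-high cells, an alternative chosen after seeing the data, left 1, with S100a8 at 1.38, S100a9 at 1.32, Lcn2 at 0.98 and Ltf at 6.36. That last setting removes the cells that hold most of the splenic UMIs, and the Ltf value rests on 1 splenic UMI, so its call tests nothing. For the others the cause was not tested. Outside the class, the fit without a block left 2 genes called. The marker gate gave 2 of only 3 that could be tested, S100a8 and Mmp9, of which Mmp9 was not called with the class taken from clusters built without the 8 genes. Leaving out class cells with 3 or more UMIs of B, T or C1q genes, as possible doublets, kept 86 tumor and 38 splenic cells, with 0 and 9 early-high.

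The marker gate, which macrophages and monocytes also pass, gave neutrophil shares of 44.6%, 42.3%, 44.9% and 24.0% in tumor and 5.97%, 3.50%, 3.66% and 1.96% in spleen, and the calprotectin gate gave 2.05% in the *Aire*+/+ isotype tumor. At a limit of 0.2%, tumor had 1 early-high and 25 mature-high cells and spleen 27 mature-high cells, and at 1% tumor had 4 mature-high cells. Tumor B cells had 67.2 CPM of S100a8 and 38.2 CPM of S100a9, which became 145 and 94.3 after thinning and 15.1 and 6.44 by receptor genes. Tumor T cells had 27.3 and 38.6 CPM, which became 11.9 and 15.2 after thinning and 18.5 and 25.0 by receptor genes. S100a9 in splenic T cells was 0.315 CPM and 1.20 CPM after thinning. Counts of genes called in either direction stayed within 1.5 times under each setting, while genes lower in tumor fell from 4557 to 2977 of fewer tested after thinning. Ratios between conditions were recomputed, after seeing the data, without the largest cell of the numerator or of each library, or without the early-high cells. Of 168 such values 47 kept within the counting interval, 112 moved and 9 reversed, and 36 more had too few UMIs. Without the early-high cells, *Aire* loss with anti-PD1 in spleen gave 0.763 for S100a8, 0.593 for S100a9 and 0.661 for their sum. Without the largest cell of the numerator, anti-PD1 gave 0.9999 for Retnlg in *Aire*+/+ tumor and 0.824 for Ltf alone or with Ngp and Camp in *Aire*-/- tumor. In *Aire*-/- spleen it gave 0.492 for Retnlg and 0.886 for Retnlg with Mmp9. Leaving out a cell of the numerator alone lowers the ratio. The isotype library kept a cell with 125 of 371 Retnlg UMIs in *Aire*+/+ tumor. In *Aire*-/- spleen it kept a cell with 26 of 60 UMIs of Retnlg and Mmp9. Without the largest cell of each library the Retnlg value in *Aire*-/- spleen was 0.885. With 135 neutrophil-like cells, and 1 in the *Aire*-/- isotype spleen, cell number limits every share of the class.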

Other observations

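Transcripts of the 8 genes in the sorted CD8+ libraries were few but not evenly spread. Ltf was found in 28 of 8975 tumor cells, with 7, 11, 1 and 9 cells and 17, 26, 1 and 121 UMIs in the order of conditions used above, and in 0 of 10810 splenic cells. The largest cell held 42 UMIs. Mmp9 was found in 32 tumor cells. Calprotectin transcripts, by comparison, gave 4 UMIs in tumor and 3 in spleen.

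Monocytes with S100a8 differed from other monocytes in another member as well. Lcn2 was detected in 34.6% of the 182 S100a8-positive tumor monocytes against 4.27% of the others, at median depths of 13175.5 and 11489 UMIs. Chil3 was detected in 89.0% against 59.5%, and Mmp8, a neutrophil collagenase, in 51.1% against 20.3%. In spleen Lcn2 was in 37.1% of S100a8-positive monocytes against 4.90% of the others, at median depths of 11949 and 7912.5 UMIs. In tumor macrophages S100a8 was 41.8, 21.5, 2.95 and 7.31 CPM by library.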
